A study of Mus musculus with 2 samples.

Results

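The 10 genes described here encode signals of the bone morphogenetic protein (BMP) and activin families, the proteins that receive or bind them, and the ID genes that respond to them. They were chosen by name, as Bmp2, Bmp4, Bmpr1a, Inhba, Fst, Fstl1, Grem1, Id1, Id2 and Id3, and each matched 1 of the 44291 genes in the files. They were measured by RNA-seq in primary mouse fibro-adipogenic progenitors (FAPs) of wild-type genotype, mesenchymal cells that reside in skeletal muscle and can become adipocytes. The cells were given platelet-rich plasma (PRP) in one culture and vehicle in the other, called the control, and both were then kept in adipogenic induction medium, whose inducers were IBMX, insulin and dexamethasone. According to the study's methods the FAPs were sorted from hind limb muscle, and PRP was prepared from human blood. The study's text describes a comparison of FAPs treated with exosomes from the PRP of young donors or with vehicle, whereas the sample labels name PRP. There was 1 library per group, so every difference below lies between 2 libraries, has no replicate check and carries no p-value.

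BMPs and activins are secreted dimers of the TGF-β superfamily. Each binds a pair of type I and type II receptors on the cell surface, which phosphorylate SMAD1, SMAD5 and SMAD9 for BMPs, or SMAD2 and SMAD3 for activins. Binding proteins such as gremlin and follistatin hold the ligands away from their receptors. The ID genes are classic direct targets of BMP receptors, and their proteins bind the E protein transcription factors and keep them off DNA. In mesenchymal cells BMP2 and BMP4 are known to favour commitment to adipocytes, whereas activin A is known to hold progenitors in a proliferating, undifferentiated state.

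Values are FPKM, that is read numbers scaled to exon length and sequencing depth, so levels of different genes can be set side by side. The PRP library held 40120843 assigned reads and the control library 34139741. Whole read numbers were recovered for all 10 genes, and each ratio below is given with its exact 95% binomial counting interval, which covers counting error only. Of the FAP markers listed for comparison, 7 of 8 reached a mean of 1 FPKM and all 7 had a lower level with PRP. The summed level of the 8 was 309 against 516 FPKM, and Pdgfra, the receptor that defines these cells, was at 19.8 against 28.0 FPKM. Lum, the remaining FAP marker, was below 0.1 FPKM in both libraries. Defining markers of blood cells (Ptprc), muscle cells (Pax7, Myog) and endothelium (Pecam1, Cdh5) were at 0.188 FPKM or less. Pecam1 still differed by more than counting error, at 0.188 against 0.0470 FPKM (interval of the ratio 1.53 to 13.7). Other genes of these lists were more abundant. Kdr, also listed as endothelial, was at 4.23 against 1.499 FPKM (ratio 2.82, interval 2.43 to 3.28), and Tek at 4.73 against 3.56 FPKM (interval 1.14 to 1.55). Cd68, of the macrophage or blood list, was at 4.56 against 2.31 FPKM (interval 1.39 to 2.79). Des, of the myogenic list, was at 2.91 against 3.39 FPKM, and its interval of 0.709 to 1.04 included no change. The summed endothelial list was 9.45 against 5.38 FPKM, the macrophage or blood list 5.36 against 2.99, the adipocyte list 7.79 against 8.13, the myogenic list 2.91 against 3.43, the platelet list 1.51 against 2.62, the pericyte list 1.34 against 1.53 and the tenocyte or glial list 3.19 against 3.72. All these markers, those of platelets included, are mouse genes, whereas the study prepared PRP from human blood. The part of these markers in the results was not tested, and in bulk RNA fewer cells of a type and less RNA per cell cannot be told apart.

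The levels of the 10 genes spanned several orders of magnitude and fell in the same order in both libraries. Fstl1 was the most abundant, followed by Inhba, Grem1, Id3, Bmpr1a, Fst, Id1, Id2, Bmp4 and Bmp2. Among neighbours in this order, the counting intervals of the levels overlapped only for Fst and Id1 in the PRP library and for Id1 and Id2 in the control library. The activin subunit was thus far more abundant than either BMP ligand. Of the ligand-binding proteins, Fstl1 and Grem1 were more abundant than the receptor Bmpr1a, whereas Fst was less abundant.

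**Figure D1:**
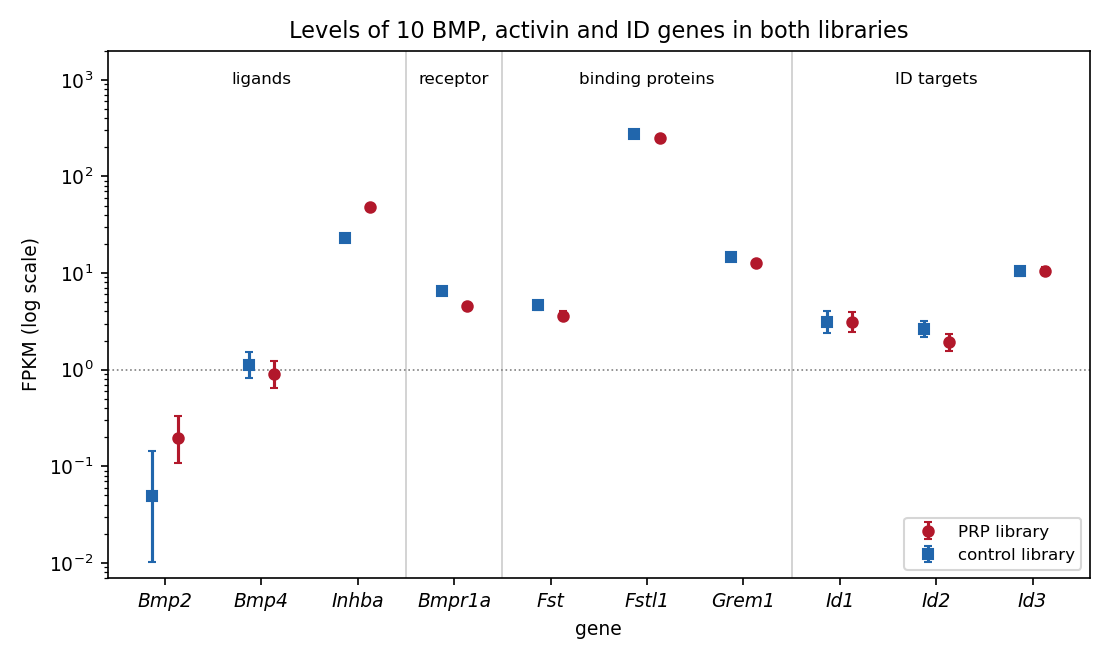
FPKM of the 10 genes in the PRP library (red circles) and the control library (blue squares) on a log scale, with bars for the exact 95% Poisson counting interval and a dotted line at 1 FPKM. Inhba stands higher in the PRP library (48.3 against 22.9 FPKM), whereas the 2 libraries nearly coincide for Id1 and Id3.

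To examine the size of the differences, genes whose mean FPKM reached 1 were counted as tested, meaning compared without a significance test, and log2 fold changes were taken after adding 1 to each FPKM, control subtracted from PRP. Of the 10 genes 9 were tested, Bmp2 being the exception, among 13401 tested genes in all. At least 2-fold higher in the PRP library was 1 of the 9 (Inhba), against 2.00% of all tested genes, and none was at least 2-fold lower, against 0.828%. At a 1.5-fold threshold the count was the same, with 1 higher (6.15% of all tested genes) and 0 lower (4.57%). The median log2 fold change of the 9 was -0.15, beside 0.01 for all tested genes, with 2 higher (1 after rescaling of the libraries, which turned Id3) and 7 lower. The counting interval lay above no change for 1 of the 9 (26.1% of the 12369 tested genes with an interval) and below it for 5 (26.1% as well), and it included no change for 3. The 5 lower genes were Bmpr1a, Id2, Fst, Grem1 and Fstl1.

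**Figure D2:**
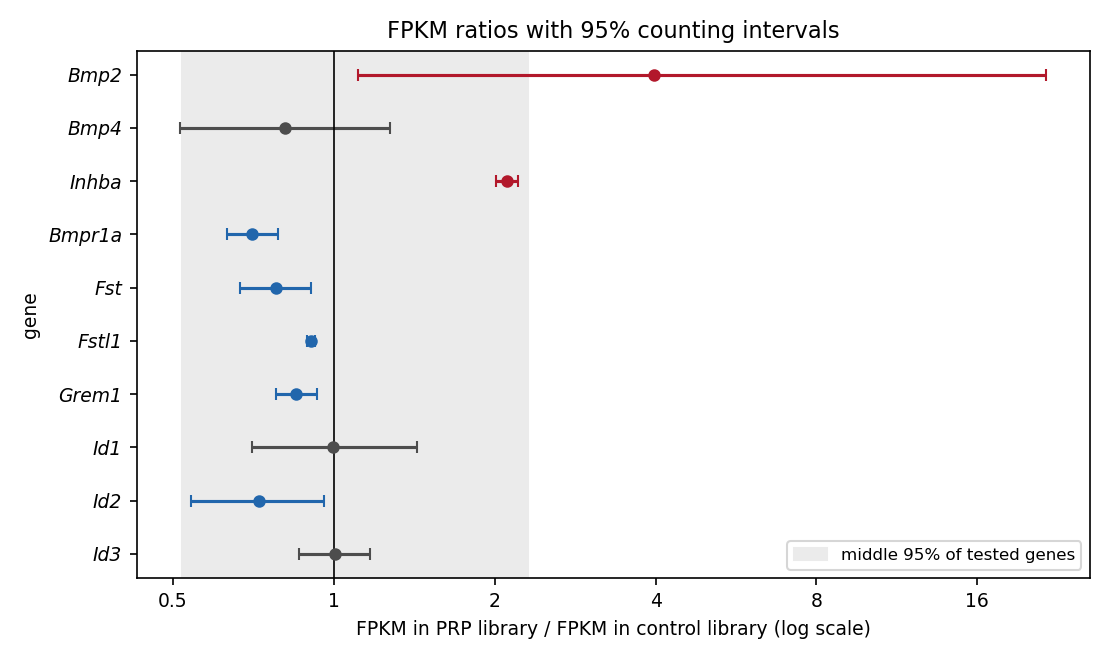
Ratio of FPKM in the PRP library to FPKM in the control library on a log scale, with bars for the exact 95% counting interval, red where it lies above 1, blue where it lies below 1 and grey where it includes 1. The grey band marks the middle 95% of the ratios of tested genes (0.519 to 2.31). Inhba (2.11) lies near its upper edge, 5 genes have intervals below 1 with ratios from 0.705 to 0.907, and the interval of Bmp2 is the widest.

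Inhba encodes the βA subunit whose homodimer is activin A (ENSMUSG00000041324, GRCm38 chromosome 13, 16011851 to 16031621, plus strand). It had 48.3 FPKM with PRP and 22.9 FPKM in the control, from 12382 and 4998 reads. The ratio was 2.11 (95% interval 2.01 to 2.21) and the log2 fold change 1.04, above that of 98.2% of tested genes. The gene shared no exon sequence with another gene. On the scale of the plain ratio, where genes with low levels vary more, it lay inside the middle 95% of tested genes. With a pseudocount of 5 in place of 1, the log2 fold change was 0.93, below the 2-fold threshold.

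The promoter window of Inhba is shown because Inhba was the gene of the set with the clearest difference. It covers 250 bases before to 50 bases after the RefSeq start (GRCm38.p6, chr13:16011601-16011900, plus strand). The window was searched on both strands for GGCGCC (an element bound by BMP-activated SMADs), CAGAC (the SMAD box), TGACG (the CRE half-site, bound by cAMP-responsive factors) and CANNTG (the E-box, bound by E proteins). These occur in 11.9%, 49.6%, 20.8% and 72.3% of the 32851 RefSeq promoter windows of the same length. The Inhba window held none of them and is therefore in lower case throughout, and its G and C content was 47.7%, beside a median of 52.7% for all windows.
Inhba: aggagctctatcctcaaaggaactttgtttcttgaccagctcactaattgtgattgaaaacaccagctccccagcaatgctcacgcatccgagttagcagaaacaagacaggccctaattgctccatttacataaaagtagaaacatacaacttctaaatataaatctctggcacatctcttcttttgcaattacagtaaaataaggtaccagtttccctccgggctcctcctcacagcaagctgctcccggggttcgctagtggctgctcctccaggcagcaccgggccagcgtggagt

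Bmp2 encodes a BMP ligand (ENSMUSG00000027358, chromosome 2, 133552159 to 133562885, plus strand) and was the scarcest gene of the set. It had 0.196 FPKM with PRP and 0.0494 FPKM in the control. These values rest on 28 and 6 reads, or 14 and 3 fragments if both mates of a pair count as 1. The ratio was 3.97, with a wide interval from 1.11 to 21.6. Bmp2 was thus higher in the PRP library by more than counting error, but its mean over both libraries did not pass the filter.

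Bmp4 encodes the closely related ligand BMP4 (ENSMUSG00000021835, chromosome 14, 46383520 to 46390669, minus strand). Its level was 0.909 FPKM with PRP and 1.12 FPKM in the control, from 82 and 86 reads. The ratio of 0.811 had an interval from 0.516 to 1.27, so a difference was not detectable at this depth. Bmp4 passed the filter only narrowly, with a mean of 1.01 FPKM. The ratio of Bmp2 to Bmp4 was 0.216 with PRP and 0.0441 in the control, and it differed by a factor of 4.89 (1.22 to 28.1).

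Bmpr1a encodes the type I receptor ALK3, which binds BMP2 and BMP4 (ENSMUSG00000021796, chromosome 14, 34410734 to 34503341, minus strand). It had 4.54 FPKM with PRP and 6.44 FPKM in the control, from 1157 and 1397 reads. The ratio was 0.705 (0.630 to 0.788). With a log2 fold change of -0.43 it was the lowest of the 9 tested genes, although 8.92% of all tested genes were lower still.

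Since the study names let-7f and miR-16 as the active microRNAs of the exosomes, 3'UTRs (GENCODE M21, the longest per gene) were searched for the match to the seed (bases 2 to 8) of each. The mature mouse sequences from RefSeq are printed with the seed in capitals.
mmu-let-7f-5p: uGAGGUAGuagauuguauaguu
mmu-miR-16-5p: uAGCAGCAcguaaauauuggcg

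None of the 10 genes held the let-7f seed match CTACCTC, which 9.89% of the 10262 tested genes with a 3'UTR hold. The miR-16 seed match TGCTGCT, held by 24.7% of these genes, occurred in Bmpr1a and Fstl1. Bmpr1a held 1 match in a 3'UTR of 3810 bases, and Fstl1 held 2 in 2588 bases. Both 3'UTRs were longer than the median of 1159.5 bases, and a longer sequence offers more places for a match. The matches are printed in capitals with their flanks on the strand of the gene (GRCm38), at chr14:34412617-34412638 on the minus strand for Bmpr1a and at chr16:37834313-37834334 and chr16:37835722-37835743 on the plus strand for Fstl1.
Bmpr1a: aatggcaaacgcTGCTGCTttt
Fstl1, first match: agggaggaacccTGCTGCTttg
Fstl1, second match: catcaaaagtttTGCTGCTggg

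Both genes with a match were lower in the PRP library, but so were 5 of the 7 tested genes without one. A match is a description of the sequence and was not tested as a site.

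The binding proteins were compared next. Fst encodes follistatin, which binds activins nearly irreversibly (ENSMUSG00000021765, chromosome 13, 114452290 to 114458951, minus strand). It had 3.62 FPKM with PRP and 4.65 FPKM in the control, from 666 and 728 reads, a ratio of 0.778 (0.669 to 0.906). Fst was thus lower where Inhba was higher. The levels of Inhba exceeded those of Fst by 13.4-fold with PRP and by 4.93-fold in the control. This ratio of the genes was 2.71 times as high in the PRP library (95% interval 2.31 to 3.17), a value that no scaling of a whole library can alter.

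Grem1 encodes gremlin, a secreted antagonist of BMP2, BMP4 and BMP7 (ENSMUSG00000074934, chromosome 2, 113746164 to 113758646, minus strand). It had 12.6 FPKM with PRP and 14.8 FPKM in the control, from 2102 and 2100 reads, a ratio of 0.852 (0.781 to 0.929). Grem1 was 13.9 times as abundant as Bmp4 in the PRP library and 13.2 times in the control library. The ratio of Bmp4 to Grem1 changed by a factor of 0.953, whose interval of 0.6001 to 1.51 includes no change. That of Bmp2 to Grem1 changed by a factor of 4.66 (1.30 to 25.4), which rests on the few reads of Bmp2.

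Fstl1 encodes follistatin-like 1, a glycoprotein secreted by mesenchymal cells that shares a domain with follistatin (ENSMUSG00000022816, chromosome 16, 37776873 to 37836514, plus strand). At 249.2 FPKM with PRP and 274.6 FPKM in the control, it ranked 192nd and 165th among all genes in the files. The 49122 and 46063 reads gave a narrow interval around the ratio of 0.907 (0.891 to 0.924). The difference was therefore larger than counting error yet small, with a log2 fold change of -0.14.

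The ID genes serve as a readout of BMP receptor activity in many cells. Id3 was the most abundant (ENSMUSG00000007872, chromosome 4, 136143497 to 136145755, plus strand), at 10.49 FPKM with PRP and 10.45 FPKM in the control. Its ratio was 1.004 (0.861 to 1.17), from 754 and 639 reads. Id1 (ENSMUSG00000042745, chromosome 2, 152736251 to 152737410, plus strand) had 3.12 FPKM and 3.13 FPKM, from 145 and 124 reads. Its ratio was 0.995 (0.704 to 1.43). For both genes the libraries thus differed by less than counting error, and the intervals leave room for a difference of up to 1.17-fold for Id3 and 1.43-fold for Id1.

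Id2 was lower in the PRP library (ENSMUSG00000020644, chromosome 12, 25093799 to 25097140, minus strand). It had 1.92 FPKM with PRP and 2.66 FPKM in the control, from 188 and 221 reads, a ratio of 0.724 (0.542 to 0.957). Ratios between the ID genes were also taken, although they were not among the ratios planned. The ratio of Id2 to Id3 changed by a factor of 0.721, with an interval from 0.519 to 0.994 that narrowly excludes no change. For Id2 against Id1 the factor was 0.727, with an interval from 0.454 to 1.14 that includes it. The summed level of the 3 ID genes was 15.5 FPKM with PRP and 16.2 FPKM in the control. Id3 made up 67.6% and 64.4% of it, Id1 20.1% and 19.3%, and Id2 12.4% and 16.4%.

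The promoter windows of Id2 and Id3 are shown because these genes are BMP targets whose ratio to each other changed by more than counting error. They were taken from RefSeq as for Inhba (GRCm38.p6), at chr12:25096043-25096342 on the minus strand for Id2 and at chr4:136143572-136143871 on the plus strand for Id3. Matches on either strand to the BMP element, the SMAD box and the CRE half-site are in capitals. Id2 held 1 GGCGCC, starting at position -231 relative to the start, and 1 E-box at -196. Id3 held 2 SMAD boxes, at -167 and -68, and a CRE half-site at -170 that overlaps the first of them.
Id2: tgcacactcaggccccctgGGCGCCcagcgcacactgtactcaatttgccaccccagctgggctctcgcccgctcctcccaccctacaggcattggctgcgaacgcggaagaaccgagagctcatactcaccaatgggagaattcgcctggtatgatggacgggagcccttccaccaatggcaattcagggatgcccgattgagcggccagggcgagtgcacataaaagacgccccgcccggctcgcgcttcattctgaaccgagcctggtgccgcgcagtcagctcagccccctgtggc
Id3: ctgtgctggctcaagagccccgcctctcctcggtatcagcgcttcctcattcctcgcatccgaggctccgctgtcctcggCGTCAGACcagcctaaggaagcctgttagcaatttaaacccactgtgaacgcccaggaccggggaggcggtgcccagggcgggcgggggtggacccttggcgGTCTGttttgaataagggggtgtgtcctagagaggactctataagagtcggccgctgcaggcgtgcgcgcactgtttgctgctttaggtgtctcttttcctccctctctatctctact

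In all, 7 of the 10 genes matched the promoter table, the others being Bmp2, Fst and Id1. A GGCGCC was also present in the windows of Bmpr1a and Grem1, so that 3 of the 7 windows held it. The windows of Bmpr1a and Grem1 were rich in G and C, at 79.3% and 70.7%, above the median of all windows. Those of Fstl1 (66.7%), Bmp4 (64.0%), Id2 (63.3%) and Id3 (60.0%) were above it as well. Grem1 also held 2 SMAD boxes, at -219 and 18. Inhba and Fstl1 held none of the 4 motifs, and Bmp4 held 3 E-boxes alone. The 3'UTRs were also searched for AUUUA, the core of AU-rich elements that are known to shorten mRNA life, a choice made after the values were seen. Inhba held 21 in 4492 bases, or 4.67 per kilobase, beside a median of 1.32 in tested genes. Bmp2 (6.84 per kilobase), Fst (6.61) and Bmp4 (5.90) held more per length, whereas Id1 and Id3 held none. Id2 (3.82), Bmpr1a (2.10) and Grem1 (2.04) also lay above the median. Of the tested genes above the median, Inhba was thus higher in the PRP library by more than counting error. Fst, Id2, Bmpr1a and Grem1 were lower by more than counting error, and the interval of Bmp4 included no change. A link between AUUUA and the differences was not tested.

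**Figure D3:**
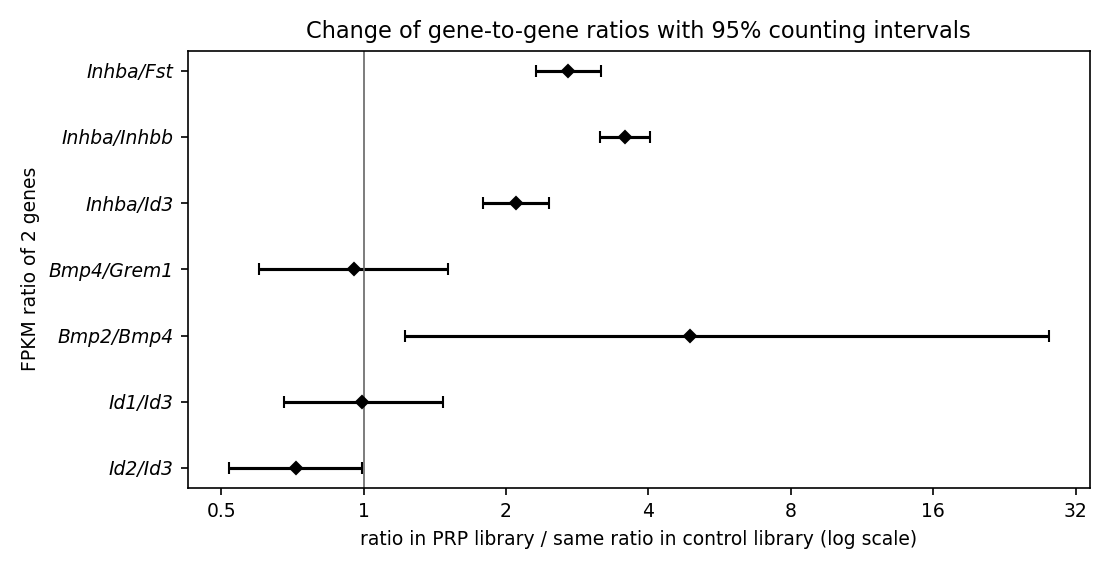
Change of the FPKM ratio of 2 genes from the control library to the PRP library, on a log scale, with bars for the exact 95% conditional counting interval. The ratios of Inhba to Fst, Inhbb and Id3, the last 2 chosen after the values were seen, lie between 2.10 and 3.57 with intervals above 1, whereas those of Bmp4 to Grem1 and Id1 to Id3 include 1. The ratios of Id1 and of Id2 to Id3 were not among those planned either.

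To place the 10 genes in their pathway, 6 lists of other genes were examined. They held 90 genes found in the files, of which 45 were tested. Their median log2 fold change was 0.02. The counting interval lay above no change for 15 and below it for 18 of the 45, beside 26.1% in each direction for all tested genes. With 1 added to each deposited FPKM, only Gdf15 was at least 2-fold different. With 0.1 added instead, 1 other ligand and 2 receptors were at least 2-fold lower as well and 1 antagonist or modulator was at least 2-fold higher.

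Among the other ligands 6 of 26 genes were tested, 3 higher and 3 lower, with a median of -0.20, which was 0.03 over 21 genes without the filter on low values. Gdf15, a stress-induced member of the superfamily, had 22.6 FPKM with PRP and 7.21 FPKM in the control (ratio 3.13, interval 2.70 to 3.64). Gdf11, a ligand of activin receptors, had 16.3 against 30.9 FPKM (ratio 0.525, interval 0.490 to 0.563). Bmp5 had 0.898 against 2.40 FPKM (ratio 0.374, interval 0.282 to 0.499). Chosen after its values were seen, Inhbb, which encodes the βB subunit of activin B, had 6.18 against 10.5 FPKM (ratio 0.590, interval 0.527 to 0.661). The 2 activin subunits thus lay on opposite sides of no change, and the ratio of Inhba to Inhbb was 7.82 with PRP and 2.19 in the control. It differed by a factor of 3.57 (interval 3.16 to 4.04).

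Receptors were mostly lower, as Bmpr1a was. Of 10 tested genes among the other receptors and co-receptors 8 were lower and 2 higher (9 and 1 if scaled without mitochondrial and top genes), and their median was -0.26. The counting interval lay below no change for all 8 lower genes, beside 26.1% of all tested genes, and above it for none. Of all tested genes 50.9% were higher. Acvr2a, a type II receptor of activins, had 2.38 against 5.43 FPKM (ratio 0.437, interval 0.376 to 0.507). Tgfbr3, the co-receptor betaglycan that the study followed, had 7.64 against 15.4 FPKM (ratio 0.494, interval 0.457 to 0.535). Neo1, which encodes neogenin, a receptor of the repulsive guidance molecules that act as BMP co-receptors, had 4.78 against 6.15 FPKM (ratio 0.777, interval 0.706 to 0.854). Also lower were the BMP receptor Bmpr2 (ratio 0.901, interval 0.824 to 0.984) and the activin receptor Acvr1b (ratio 0.759, interval 0.630 to 0.913). Bmpr1b was not lower, with a ratio of 1.16 and an interval of 0.958 to 1.39 that included no change. The lower group thus held receptors of BMPs as well as of activins. Matches to the miR-16 seed also occurred in genes named below that were higher with PRP, namely Smurf1 (3), Crim1 (2), Tll1 (2), Skil (1) and Smad7 (1). Overlapping matches were counted separately, which holds for both matches of Crim1 and for 2 of the 3 of Smurf1. Skil held 1 let-7f match as well. Tgfbr3 held 1 match to each seed. For this gene the study reported a luciferase assay in which both microRNAs bound the 3'UTR. It also reported lower mRNA and protein of the gene after transfection of the microRNAs. The 3'UTR of Acvr2a held 2 miR-16 seed matches in 3481 bases, which are printed because Acvr2a was the lowest of the receptors. They lie on the plus strand of GRCm38 at chr2:48900275-48900296 and chr2:48902276-48902297.
Acvr2a, first match: gaatgtgtagtgTGCTGCTgtt
Acvr2a, second match: acccaccagaacTGCTGCTctt

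Extracellular antagonists and modulators went both ways, with 5 of 9 tested genes higher, 4 lower and a median of 0.11, which was -0.03 for the 6 genes with a mean of at least 5 FPKM. Crim1, a membrane protein that tethers BMPs, had 9.43 against 5.71 FPKM (ratio 1.65, interval 1.49 to 1.83). Tll1, a protease of the BMP1 family that cleaves the antagonist chordin, had 1.53 against 0.604 FPKM (ratio 2.53, interval 1.96 to 3.30). Bmp1 itself was more abundant and was lower with PRP, at 8.39 against 12.3 FPKM (ratio 0.681, interval 0.636 to 0.730). In addition, Fstl3, the other follistatin family member that binds activins, had 5.93 against 5.42 FPKM, and its interval of 0.918 to 1.31 included no change. With Fst and Fstl3 summed, Inhba exceeded its binding proteins by 5.06-fold with PRP and by 2.28-fold in the control.

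Among the SMADs and their modifiers 9 of 10 tested genes were higher and 1 was lower (8 and 2 if scaled without mitochondrial and top genes). Of all tested genes 50.9% were higher. The differences were small, with a median log2 fold change of 0.14. The counting interval lay above no change for 5 and below it for 1 (Ski, 0.893 to 0.997). Over all tested genes with an interval, the share was 26.1% in each direction. Tgif1, a corepressor of SMAD2 and SMAD3, had 5.55 against 3.25 FPKM (ratio 1.71, interval 1.49 to 1.97). Skil, a negative feedback regulator induced by SMAD3, had 15.0 against 12.2 FPKM (ratio 1.23, interval 1.16 to 1.30). Smurf1, a ubiquitin ligase for SMADs, had 11.9 against 10.5 FPKM (ratio 1.13, interval 1.05 to 1.22). For the BMP SMADs themselves, Smad1 (0.962 to 1.32) and Smad5 (0.926 to 1.19), the intervals included no change.

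Other genes that respond to BMPs were tested in 4 of 10 cases, 3 higher and 1 lower (2 and 2 if scaled without mitochondrial and top genes). Their median was 0.21, which was 0.06 over 10 genes without the filter on low values. For Atoh8 the ratio was 1.02, with an interval of 0.845 to 1.22 that included no change. Smad7, an inhibitory SMAD, had 7.70 against 5.55 FPKM (ratio 1.39, interval 1.23 to 1.57). Smad6, the inhibitory SMAD more specific to BMP signals, had 1.92 against 2.51 FPKM (ratio 0.764, interval 0.595 to 0.982). Id4, the remaining ID gene, had 2.58 against 1.65 FPKM (ratio 1.56, interval 1.22 to 1.98). Of the 4 ID genes, Id4 was thus higher and Id2 lower by more than counting error, whereas the intervals of Id1 and Id3 included no change. Of the E proteins and other partners 6 of 9 were tested, 3 higher and 3 lower, with a median of 0.00, or -0.03 under the same scaling. Tcf4, an E protein that ID proteins bind, had 1.37 against 2.29 FPKM (ratio 0.599, interval 0.545 to 0.658). Hes1 had 3.24 against 2.37 FPKM (ratio 1.37, interval 1.03 to 1.82), and Twist1, a mesenchymal bHLH factor, had 11.1 against 13.1 FPKM (ratio 0.844, interval 0.728 to 0.979).

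**Figure D4:**
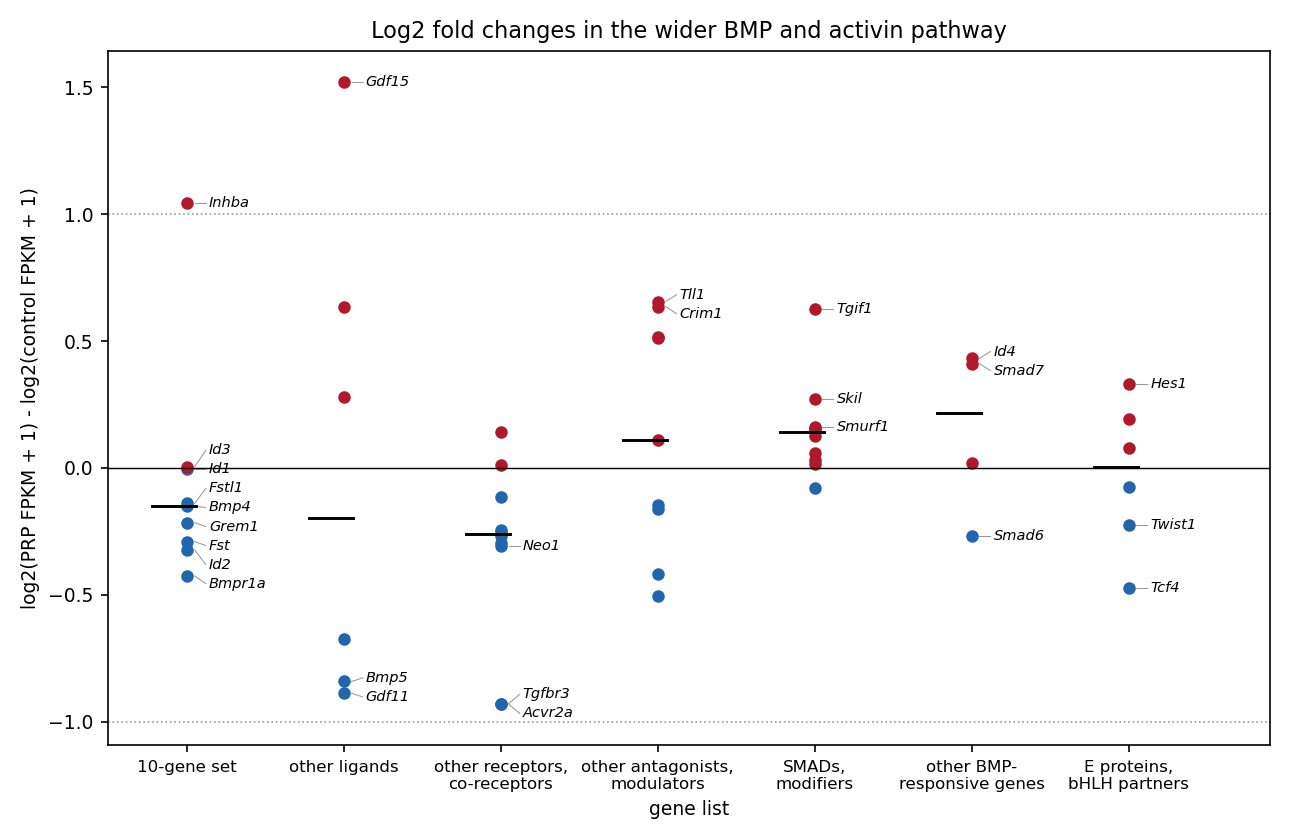
Log2 fold changes of tested genes (points, red above 0 and blue below) in the 10-gene set and in 6 lists of the wider pathway, with black bars for medians and dotted lines at 2-fold. Inhba (1.04) and Gdf15 (1.52) lie above the upper line, and 8 of 10 other receptors and co-receptors lie below 0 (9 of 10 if scaled without mitochondrial and top genes).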

How the data were processed

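RNA-seq was available for 1 PRP-treated and 1 control culture of FAPs. Per the labels and the study's methods, RNA was extracted with TRIzol, libraries were made with a stranded mRNA kit, and the authors trimmed reads with fastp 0.23.4, aligned them to mm10 with STAR 2.5.3a and counted them with featureCounts. The deposited values are FPKM as the authors computed them. The annotation release and the strand setting of the counting are not given in the sources used here. Exons of Bmp4, Bmpr1a and Fst overlapped genes on the opposite strand over 2.51% to 4.57% of their length.

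Exon lengths came from GENCODE M21 (GRCm38), which held 41492 of the 44291 genes (93.7%). FPKM times length came out as whole reads, within 0.001 reads, in both libraries for 93.6% of 22777 genes above 0 in both. Even read numbers were in excess (79.3% and 80.3% of genes with up to 8 reads), so reads were divided by 2 and rounded up to fragments. From these the exact Clopper-Pearson 95% interval of the PRP share was turned into the FPKM ratio, levels got exact Poisson intervals, and ratios of 2 genes got exact conditional odds-ratio intervals. PCR duplicates were not considered, and no count test was run.

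The log2 fold change used a pseudocount of 1, which understates changes of low genes, and a mean FPKM of at least 1. The 10 genes and the 6 pathway lists were chosen with earlier results of these data known. All 10 were named, and of each list the 3 tested genes with the largest absolute log2 fold change; other genes named were chosen after their values were seen. One gene that this rule names is not reported here. The alternatives covered a pseudocount of 0.1 or 5, a filter at 5 FPKM or none, rescaling, centring, thresholds of 1.5-fold and 4-fold, and reads as independent. Protein sequences were not used here. Computation ran in Python 3.11.15 (SciPy 1.17.1, pandas 2.3.3, NumPy 2.4.6; matplotlib 3.10.9 for plots), and the procedures were tested on simulated data.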

Additional observations from a re-analysis of the deposited data

How the results depend on the processing

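Of the 10 genes, 9 kept the sign of their log2 fold change under every alternative tried, Id3 being the exception, which lay between -0.03 and 0.01. Inhba ranged from 0.93 to 1.07, Bmpr1a from -0.51 to -0.26, Fst from -0.37 to -0.16 and Id2 from -0.45 to -0.15. Adding 5 in place of 1 left 0 of the 10 genes at least 2-fold different. A filter at a mean of 5 FPKM left 5 genes tested, of which 3 were lower. Scaling to equal sums, subtracting the median gene, or scaling without mitochondrial genes and the 50 most abundant ones gave 1 gene higher instead of 2, because Id3 crossed 0. Over all genes, 379 differed at least 2-fold at the settings used. The number became 739 and 113 for pseudocounts of 0.1 and 5, and 210 under the filter of 5 FPKM, while thresholds of 1.5-fold and 4-fold gave 1436 and 26. It was 596 and 638 when each library was scaled to a sum of 1000000, with all genes or without mitochondrial and abundant ones, which also shrinks the pseudocount relative to the values. With scaling to the mean of both sums instead, chosen after seeing the data, it was 376 and 378. No paired analysis was possible because neither group had more than 1 library. Depth limits Bmp2, Bmp4, Id1 and Id2 most.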
